A study of Mus musculus with 2 samples.

Results

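The genes described here are the translation initiation factors, the elongation factors, their dedicated kinases, methyltransferases and binding proteins, and the aminoacyl-tRNA synthetases of mouse liver. They were chosen by symbol alone, as protein-coding genes whose symbol starts with Eif or Eef and a digit, without Eif2s3y, or names a tRNA synthetase in the style of Lars, Lars2, Eprs, Farsa and Farsb. The annotation held 104 such genes, of which 103 had a row, and 99 of these reached 20 counts summed over both libraries. The 99 genes comprised 52 Eif genes, 10 Eef genes and 37 synthetases, out of 14433 genes of all kinds that reached the same floor.

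Liver RNA came from Mettl3 HKO mice, which are Mettl3 flox/flox and Alb-Cre+/-, and from Mettl3 flox/flox mice without Cre. All mice were C57BL/6, 8 weeks old and on normal chow, and RNA from 4 livers was pooled into 1 library for each genotype. The study asked what loss of the RNA methyltransferase METTL3 in hepatocytes does to the liver. With 1 library per genotype there was no replicate, no test between genotypes was possible, and every difference below describes 2 libraries. Intervals are 95% exact binomial intervals and cover counting error only, and reads copied by PCR were counted as reads.

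Cells start translation by loading initiator tRNA onto the small ribosomal subunit with eIF2, guided by eIF1, eIF1A, eIF3 and eIF5, while eIF4F brings the capped end of the mRNA. eEF1A then delivers each aminoacyl-tRNA, eEF2 moves the ribosome along, and synthetases load every tRNA with its amino acid, in the cytosol or in mitochondria. Kinases that phosphorylate eIF2 and proteins that sequester eIF4E are the best known brakes on the process, and the liver, which exports large amounts of plasma protein, depends on it heavily.

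The library labelled HKO held 18438807 counts and the library labelled flox 21457504. Mettl3 itself had 220 counts in the library labelled HKO and 156 in the library labelled flox, a log2 ratio of 0.45, which runs against the label. Counts were given per gene and not per exon, so reads of the floxed exons could not be looked at alone, and Cre was driven by the hepatocyte promoter of Alb. Why the count runs against the label was not tested. Ratios below put the library labelled HKO over the library labelled flox on the TMM scale, and scaling to total counts instead adds 0.27 to every log2 ratio, so that 31 of the 99 genes change sign, those with a negative ratio smaller than this. All 9 macrophage markers had intervals above equality, where 28.3% of all genes did. They summed to 13142 counts in the library labelled HKO and 7665 in the library labelled flox. Of the 8 hepatocyte markers, 7 had intervals below equality, where 27.7% of all genes did, and 1 held it. With total counts 3 of their ratios were above 1. They summed to 1694049 and 2417893 counts in the libraries labelled HKO and flox, of which Alb alone held 886277 and 1460053. Stellate cell markers had a median of 0.45, with 4 of 6 intervals above equality and Des at −1.26, and bile duct markers ran both ways, with Sox9 at 2.05 and Krt19 at −2.19. Of the neutrophil markers, Ly6g was at 0 in both libraries, and none of the 3 neutrophil and none of the 5 muscle and nerve markers reached 20 counts. In bulk tissue, fewer cells of a type and less RNA per cell cannot be told apart, and the part of these shifts in the results below was not tested.

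RefSeq promoter windows of 300 bases (build GRCm38.p6, 250 before and 50 from the annotated start) were given for 74 of the 99 genes. They are shown for 2 elements tied to translation genes. The first is TTGCATCA, a form of the amino acid response element that ATF4 is known to bind, searched on both strands (TGATGCAA on the other). It occurred in the windows of 4 of 12 cytosolic synthetases, 0 of 14 mitochondrial synthetases and 0 of 48 factors, against 1.03% of 27025 genes. Printed 5′ to 3′ on the strand of the gene with the motif in capitals, the matches shown are:
Iars (chr13:49682126-49682155, plus strand): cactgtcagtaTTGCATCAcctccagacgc
Tars (chr15:11399655-11399684, minus strand): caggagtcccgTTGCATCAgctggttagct
Yars (chr4:129189895-129189924, plus strand): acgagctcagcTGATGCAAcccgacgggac

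The second element is a run of C and T that opens with C at the start site, as in the 5′ terminal oligopyrimidine tract of mRNAs whose translation follows mTORC1. Runs were counted from a C within 5 bases of the annotated start, whatever base came before it, so C or T may also precede a run. A run of at least 5 such bases was found for 20 of the 74 genes (27.0%), against 21.2% of all genes with a window. Runs of at least 9 bases, a length chosen after the data were seen, were found for 4 of the 74 genes and 3.47% of all genes. The start sites used in liver were not measured. A printed run, that of Eef1a1 included, may therefore lie away from the 5′ end of the mRNA. With the run in capitals, in windows that open 10 bases before the annotated start, they were:
Eef1a1 (chr9:78481705-78481734, minus strand): ctccgCCCTCTTCCCgagggtgggggagaa
Eif2s3x (chrX:94212632-94212661, minus strand): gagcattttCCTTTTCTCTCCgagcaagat
Eif3f (chr7:108934405-108934434, plus strand): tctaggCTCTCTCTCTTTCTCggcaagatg
Eif3l (chr15:79075213-79075242, plus strand): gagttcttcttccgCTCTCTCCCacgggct

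The 99 genes as a set lay close to equality. Their median log2 ratio was 0.03 (quartiles −0.18 and 0.24), against 0.01 (−0.31 and 0.37) over all 14433 genes. With upper quartile scaling the members' median turned to −0.04 and that of all genes to −0.07. Past 2-fold means a log2 ratio of 1 or more in either direction, with an interval that excludes equality. By this rule 2 members were higher, Eif3j2 and Pars2, and 0 were lower, where 5.74% and 4.66% of all genes were called in these directions and 10.4% in either. With total counts 5 members were higher, as Eif1a, Ears2 and Eif4e3 joined. How many of all genes passed 2-fold with total counts is not given here. The members' median with total counts was 0.30, and 85 of the 99 ratios were above 1. Over all genes that median was 0.28, with 10376 of 14433 ratios above 1. The 1.5-fold limit, also with an interval that excludes equality, was passed by 8 members higher and 2 lower, against 13.0% and 10.3% of all genes in these directions and 23.3% in either. A stricter rule, a log2 ratio above 1.5 in size with an exact binomial p under 0.05 between the libraries, called 0 members, against 2.21% of all genes higher, 2.13% lower and 4.34% in either direction. Within 1.5-fold lay 89 of the 99 genes (89.9%), against 72.3% of all genes. Among genes with at least 200 counts, where counting error matters less, the figures were 91.6% of 95 members and 80.2% of 9818 genes. Intervals excluded equality for 37 members above it and 32 below it, where 28.3% of all genes lay above, 27.7% below and 56.0% on either side. Without regard to intervals, 54 ratios were above 1 and 45 below, against 50.8% and 49.2% of all genes.

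The members' share of all counts was 1.84% in the library labelled HKO and 1.41% in the library labelled flox. Much of it was 2 elongation factors, since Eef1a1 and Eef2 together held 0.959% and 0.680% of counts in the libraries labelled HKO and flox. On the TMM scale the summed counts of all 99 genes had a log2 ratio of 0.11, and the sum without Eef1a1 had one of 0.0025, with an interval that held equality.

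**Figure D1:**
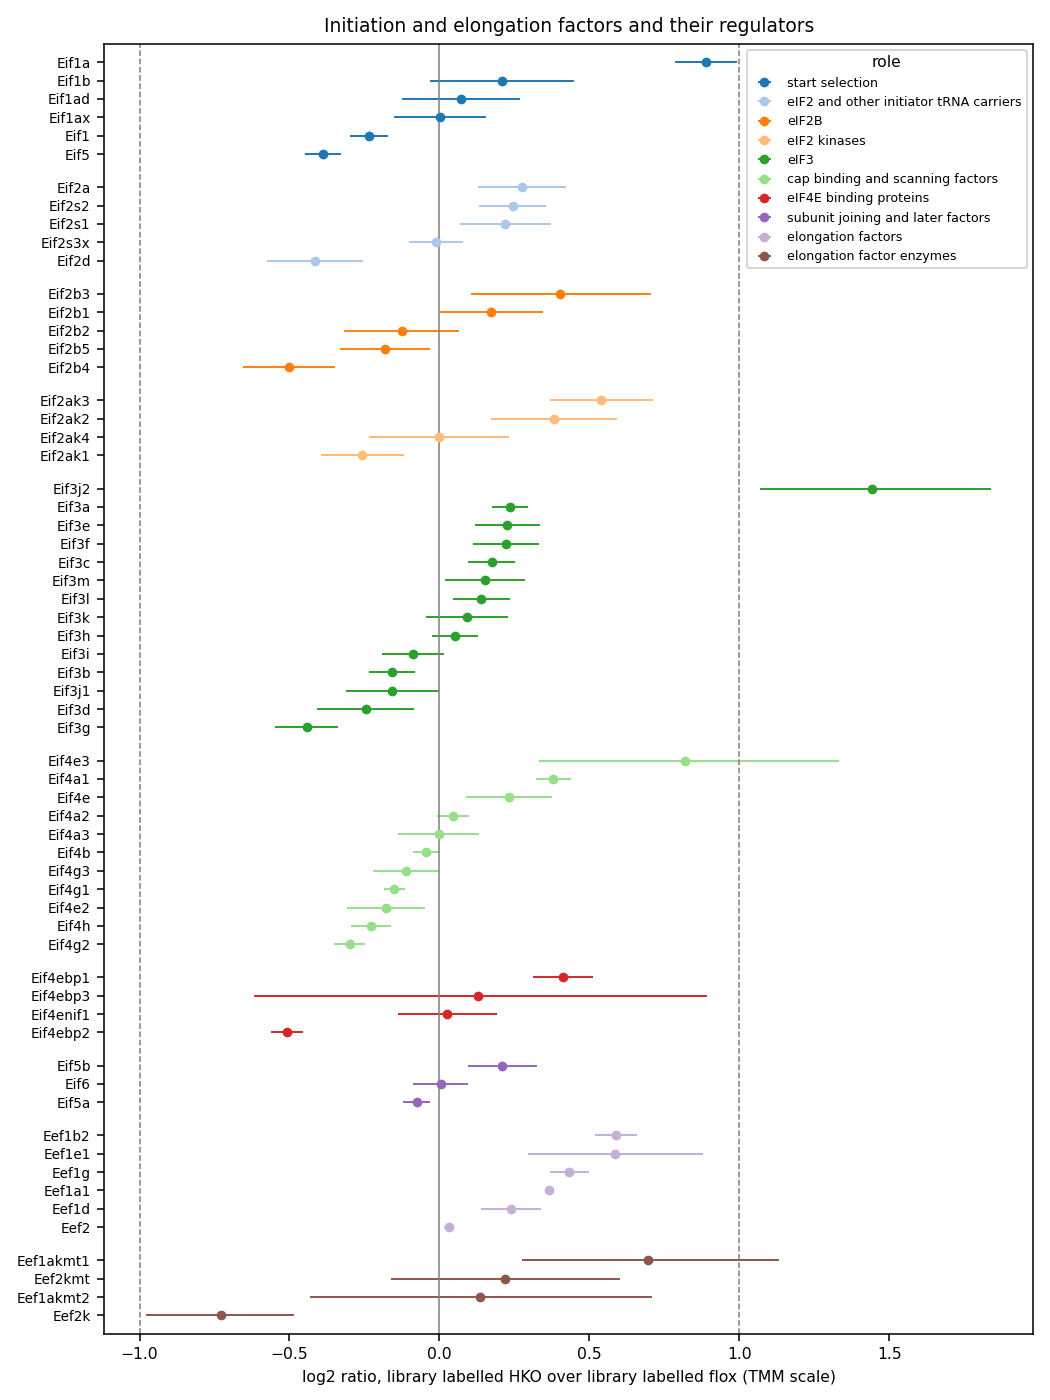
Log2 ratio of the library labelled HKO over the library labelled flox for each initiation and elongation factor and regulator (points, TMM scale, coloured by role), with 95% counting intervals (bars) and dashed lines at 2-fold. Eif3j2 lies at 1.44 beyond the line and Eef2k lies lowest at −0.73. All 6 genes grouped as elongation factors, with Eef1e1 among them by its symbol, lie above 0. Of these, Eef2 at 0.03 falls below 0 with upper quartile scaling.

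Of the factors that select the start codon, Eif1a stood apart. It encodes eIF1A, which helps the small subunit scan, and had 2195 counts in the library labelled HKO and 1146 in the library labelled flox, a 1.85-fold difference (1.72 to 1.99). Its X-linked paralog Eif1ax had 714 and 690 counts in the libraries labelled HKO and flox, a log2 ratio of 0.00. The 2 genes summed to 2909 counts in the library labelled HKO and 1836 in the library labelled flox, a log2 ratio of 0.62. Eif5, which triggers GTP hydrolysis on eIF2, lay lowest of this group with 3978 counts in the library labelled HKO and 5035 in the library labelled flox (−0.39). Eif1, the partner of eIF1A in start selection, had 3912 and 4454 counts in the libraries labelled HKO and flox (−0.24), a difference that turned to the other side of 0 with total counts. Eif1b and Eif1ad had intervals that held equality.

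Genes for the eIF2 subunits differed little. Eif2s1, the alpha subunit that carries the regulated phosphorylation site, had 778 counts in the library labelled HKO and 646 in the library labelled flox (0.22). Eif2s2, the beta subunit, had 1483 and 1211 counts in the libraries labelled HKO and flox (0.24). Eif2s3x, the X-linked gamma subunit, had 2027 and 1974 counts (−0.01), and 33.7% of its 100-base words recur in another gene. The initiator tRNA carriers outside eIF2 lay on opposite sides, with Eif2a at 864 counts in the library labelled HKO and 690 in the library labelled flox (0.28), and Eif2d at 569 and 733 counts (−0.41).

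The 5 subunits of eIF2B, which reloads eIF2 with GTP, spread more widely, and their median of −0.13 turned to 0.14 with total counts. Eif2b3, the gamma subunit, had 223 counts in the library labelled HKO and 163 in the library labelled flox (0.40). Eif2b4, the delta subunit, had 607 and 831 counts in the libraries labelled HKO and flox (−0.50). The catalytic subunit gene Eif2b5 had 692 counts in the library labelled HKO and 759 in the library labelled flox (−0.18), below equality on the TMM scale and above it with total counts.

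Among the 4 kinases of eIF2, the one that senses unfolded protein in the endoplasmic reticulum differed most. This kinase, PERK, is encoded by Eif2ak3, which had 696 counts in the library labelled HKO and 463 in the library labelled flox (0.54, interval 0.37 to 0.71). Eif2ak2 encodes PKR, the sensor of double-stranded RNA and itself interferon-inducible, and had 438 and 325 counts in the libraries labelled HKO and flox (0.38, interval 0.17 to 0.59). Beside it, all 14 interferon-stimulated genes of a comparison list had intervals above equality, where 28.3% of all genes did. Of these, 8 were past 2-fold higher, where 5.74% of all genes were, and the median was 1.09. The part of this in the PKR value was not tested. Eif2ak1, the heme-regulated kinase, had 802 counts in the library labelled HKO and 927 in the library labelled flox (−0.26), and Eif2ak4, the sensor of uncharged tRNA, had 309 and 299 (−0.00).

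ATF4, whose translation is favoured when eIF2 is phosphorylated, was nearly level in mRNA, with 1666 counts for Atf4 in the library labelled HKO and 1687 in the library labelled flox (−0.07). Of 22 measured genes in a list of ATF4 and its targets, 8 were past 2-fold higher and 0 lower, where 5.74% and 4.66% of all genes were, among them the stress hormone genes Gdf15 (1.68) and Fgf21 (2.43) and the serine synthesis gene Psat1 (2.51). Others of the list ran lower, such as Chac1 (−0.80) and Ddit4 (−0.51), and 12 intervals lay above equality and 6 below, where 28.3% and 27.7% of all genes did. Of the synthetases whose motif is printed above, Iars had a log2 ratio of 0.41, Yars 0.03 and Tars −0.10, of which Tars turned positive with total counts and Yars negative with upper quartile scaling.

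The eIF3 complex, the largest initiation factor, was close to level apart from 1 gene. Eif3j2 (ENSMUSG00000043424, chr18:43475418-43477796, GRCm38) encodes a form of the loosely bound j subunit and had 220 counts in the library labelled HKO and 78 in the library labelled flox, a 2.72-fold difference (2.10 to 3.58). Of its 100-base words, 84.0% occur in another gene, so its reads could be split with near-identical copies and its value is uncertain. The copy Eif3j1 had 659 counts in the library labelled HKO and 711 in the library labelled flox (−0.16). Both j genes summed to 879 counts in the library labelled HKO and 789 in the library labelled flox, a log2 ratio of 0.11 whose interval held equality (−0.03 to 0.25).

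The other 13 eIF3 genes all lay within 1.5-fold, with a median of 0.09. Eif3a, the scaffold subunit, had 5031 counts in the library labelled HKO and 4132 in the library labelled flox (0.24). Eif3g, an RNA-binding subunit, lay lowest with 1278 and 1680 counts in the libraries labelled HKO and flox (−0.44). Eif3d had 587 counts in the library labelled HKO and 673 in the library labelled flox (−0.25), and 43.3% of its exonic bases lie in exons of another gene. The start-tract genes Eif3f and Eif3l of the printed sequences lay at 0.22 and 0.14.

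The cap-binding and scanning factors had a median of −0.04, which turned to 0.22 with total counts. Eif4g1, the scaffold of eIF4F, had 12239 counts in the library labelled HKO and 13133 in the library labelled flox (−0.15). Eif4b, a helper of the helicase, had 7748 and 7725 counts in the libraries labelled HKO and flox (−0.04), with an interval that held equality. Of the helicase genes, Eif4a1 had 5746 counts in the library labelled HKO and 4271 in the library labelled flox (0.38), with 22.6% of its words recurring in other genes, and Eif4a2 had 5604 and 5254 (0.05). Eif4g2, a scaffold related to eIF4G that does not bind eIF4E, lay lowest with 5755 counts in the library labelled HKO and 6849 in the library labelled flox (−0.30).

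The cap-binding protein gene Eif4e had 873 counts in the library labelled HKO and 719 in the library labelled flox (0.23). Its relative Eif4e3, at 1.95 FPKM (counts per kilobase of transcript after scaling both libraries to a common TMM depth) in the library labelled HKO and 1.10 in the library labelled flox against 8.65 and 7.36 for Eif4e, had 99 and 54 counts in the libraries labelled HKO and flox (0.82, interval 0.33 to 1.33). The genes for proteins that sequester eIF4E lay on opposite sides of equality. Eif4ebp1 had 1955 counts in the library labelled HKO and 1421 in the library labelled flox (0.41, interval 0.31 to 0.51). Eif4ebp2 had 4945 counts in the library labelled HKO and 6807 in the library labelled flox (−0.51, interval −0.56 to −0.46). Their summed log2 ratio was −0.30, and per length Eif4ebp2 made up 46.6% of the pair in the library labelled HKO and 62.3% in the library labelled flox. Eif4ebp3 was just above the floor with 34 and 30 counts in the libraries labelled HKO and flox, and 67.3% of its exonic bases lie in exons of another gene. The eIF4E transporter gene Eif4enif1 had 620 counts in the library labelled HKO and 589 in the library labelled flox (0.03).

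mTORC1 phosphorylates the 4E-BPs and so frees eIF4E. A list of 13 genes held this kinase complex, its translation effectors and the upstream regulators Tsc1, Tsc2 and Rheb, with activators and inhibitors together. In it 7 intervals lay below equality and 1 above, where 27.7% and 28.3% of all genes did. The median of −0.27 moved to −0.00 with total counts. Tsc2, an inhibitor of mTORC1, had 944 counts in the library labelled HKO and 1444 in the library labelled flox (−0.66). Pdcd4, an inhibitor of eIF4A, had 953 counts in the library labelled HKO and 1646 in the library labelled flox (−0.84). Mknk2, a kinase of eIF4E, had 4551 and 6348 counts in the libraries labelled HKO and flox (−0.53).

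Of the later factors, Eif5a, the hypusine-bearing protein that helps ribosomes through difficult peptide bonds, had 8183 counts in the library labelled HKO and 8340 in the library labelled flox (−0.08). Eif5b, which joins the subunits, had 1347 and 1127 counts in the libraries labelled HKO and flox (0.21). Eif6, which keeps free large subunits apart, had 1977 counts in the library labelled HKO and 1906 in the library labelled flox (0.00).

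The elongation factors had the highest median of the 12 roles, 0.40. Intervals lay above equality for 6 of 6 genes, where 28.3% of all genes did. The median half-width of these intervals was 0.07 on the log2 scale, against 0.25 over all genes. Eef1a1 (ENSMUSG00000037742), which carries aminoacyl-tRNA to the ribosome, had 109639 counts in the library labelled HKO and 82280 in the library labelled flox (0.37, interval 0.35 to 0.38). Its exchange factor subunits were higher as well. Eef1b2 had 4209 counts in the library labelled HKO and 2705 in the library labelled flox (0.59), Eef1g had 4611 and 3302 (0.43), and Eef1d had 1786 and 1465 (0.24). These 4 eEF1 genes, grouped after their values were seen, stayed above equality under each scaling tried, while 32.4% of the sequence of Eef1g and 16.3% of that of Eef1a1 are shared with other genes. Eef1e1 had 253 counts in the library labelled HKO and 163 in the library labelled flox (0.58). It encodes a small protein of the synthetase complex and is counted among the 6 genes above by its symbol.

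Eef2, the translocase, was the exception in size. It had 67268 counts in the library labelled HKO and 63650 in the library labelled flox, a log2 ratio of 0.03 (0.02 to 0.05) that fell below 0 with upper quartile scaling. Its inhibitory kinase gene Eef2k had 225 and 361 counts in the libraries labelled HKO and flox (−0.73, interval −0.98 to −0.49), the lowest ratio among the factors and their regulators. Eef1akmt1, a lysine methyltransferase of eEF1A, had 126 counts in the library labelled HKO and 75 in the library labelled flox (0.70, interval 0.28 to 1.13). Eef1akmt2 and Eef2kmt had intervals that held equality.

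The cytosolic ribosomal protein genes, the other large class of translation genes, had a median of 0.44 over 79 genes. Of their intervals 74 lay above equality, where 28.3% of all genes did. Termination and poly(A)-binding genes had a median of 0.01 over 9 genes, mitochondrial translation factors 0.14 over 9, mitochondrial ribosomal proteins 0.10 over 77 and synthetase partners 0.12 over 12. With upper quartile scaling the termination median turned negative.

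**Figure D2:**
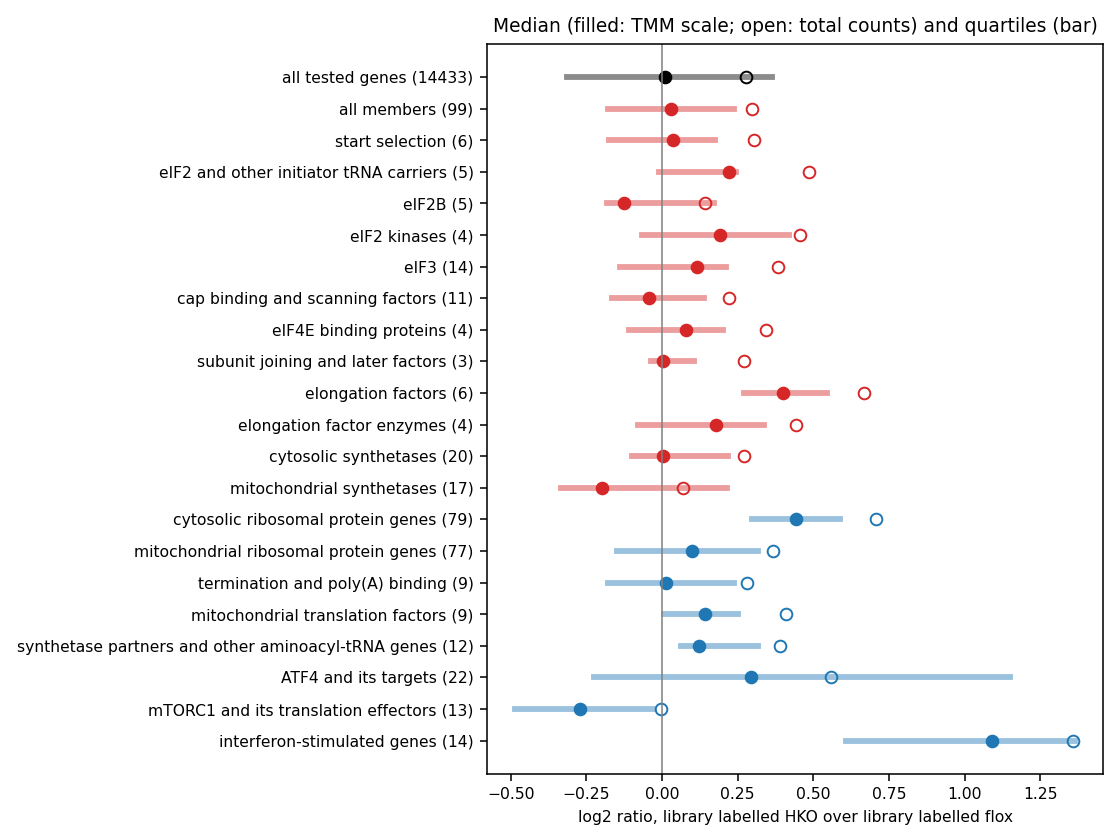
Median log2 ratio of the library labelled HKO over the library labelled flox (filled points, TMM scale; open points, total counts) and quartiles (bars) for all tested genes (black), the members and their roles (red) and comparison lists (blue), with the number of genes in brackets. Elongation factors (0.40) lie near the cytosolic ribosomal protein genes (0.44), and total counts move every median up by 0.27, so that the medians of eIF2B, the cap binding and scanning factors and the mitochondrial synthetases change sign.

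The cytosolic enzymes together had more counts than the mitochondrial ones, though not in every pair. They summed to 29442 against 10586 in the library labelled HKO and 28095 against 11094 in the library labelled flox. The median half-width of the intervals was 0.12 for the cytosolic enzymes, against 0.22 for the mitochondrial enzymes, on the log2 scale. All 20 cytosolic enzymes lay within 1.5-fold, where 72.3% of all genes did, with a median of 0.00 that turned to −0.07 with upper quartile scaling, and with 6 intervals above equality and 5 below, where 28.3% and 27.7% of all genes lay. Rars, for arginine, lay highest with 716 counts in the library labelled HKO and 477 in the library labelled flox (0.54, interval 0.37 to 0.71). Iars, for isoleucine, had 1108 and 806 counts in the libraries labelled HKO and flox (0.41). Sars, for serine, had 2314 counts in the library labelled HKO and 1751 in the library labelled flox (0.35). At the other end Qars, for glutamine, had 1140 counts in the library labelled HKO and 1422 in the library labelled flox (−0.37).

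Other cytosolic enzymes lay nearer to equality. Aars, for alanine, had 5227 counts in the library labelled HKO and 5191 in the library labelled flox, and Eprs, a fused enzyme for glutamate and proline, had 3032 and 2865, both with intervals that held equality. Farsa and Farsb encode the alpha and beta chains of 1 enzyme and lay apart. Farsa had 473 counts in the library labelled HKO and 572 in the library labelled flox (−0.32), and Farsb had 640 and 480 (0.37). The 8 enzymes of the multisynthetase complex had a median of −0.02, which turned to 0.24 with total counts. Gars and Kars, whose products serve both compartments, lay at 0.31 and −0.21, the second of which turned positive with total counts.

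**Figure D3:**
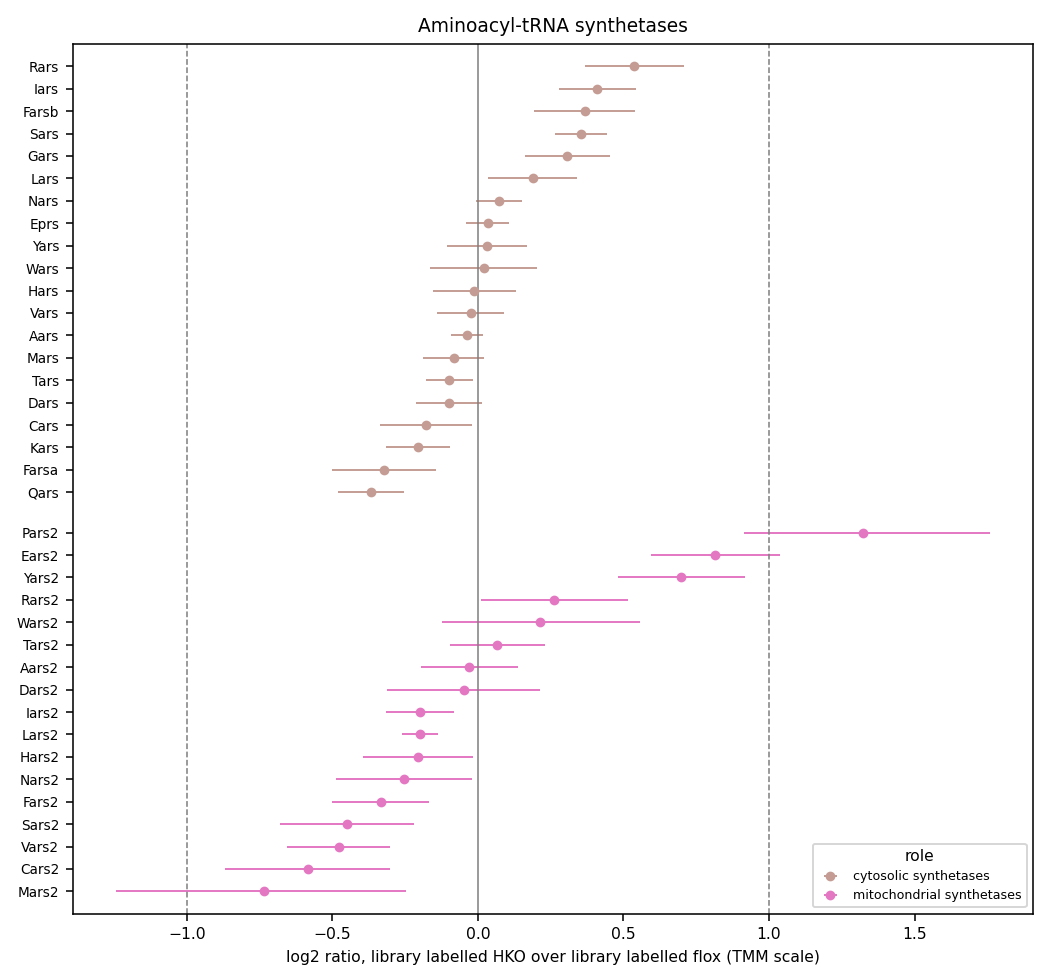
Log2 ratio of the library labelled HKO over the library labelled flox for each synthetase (points, TMM scale) with 95% counting intervals (bars) and dashed lines at 2-fold. The 20 cytosolic enzymes lie between −0.37 and 0.54 and the 17 mitochondrial enzymes between −0.73 and 1.32, and total counts add 0.27 to each.

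Of the 17 mitochondrial enzymes, 76.5% lay within 1.5-fold, against 72.3% of all genes. They had 4 intervals above equality and 9 below, where 28.3% and 27.7% of all genes lay, and a median of −0.20 that turned to 0.07 with total counts. Pars2 (ENSMUSG00000043572, chr4:106651069-106655282, GRCm38), for proline, had 174 counts in the library labelled HKO and 67 in the library labelled flox, a 2.50-fold difference (1.88 to 3.38). None of its 100-base words recurs elsewhere in the annotated transcripts. Ears2, for glutamate, had 473 counts in the library labelled HKO and 260 in the library labelled flox (0.81, interval 0.59 to 1.04). Yars2, for tyrosine, had 465 and 277 counts in the libraries labelled HKO and flox (0.70, interval 0.48 to 0.92). These 3 were the mitochondrial enzymes past 1.5-fold higher, and 1 was past it lower, where 13.0% and 10.3% of all genes were. That one was Mars2, for methionine, with 57 counts in the library labelled HKO and 92 in the library labelled flox (−0.73, interval −1.24 to −0.25). Below equality also lay Cars2, for cysteine, with 178 and 258 counts in the libraries labelled HKO and flox (−0.58), and Vars2, for valine, with 461 and 621 (−0.48). Lars2, the most abundant, had 4128 counts in the library labelled HKO and 4583 in the library labelled flox (−0.20), which turned positive with total counts.

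For 17 amino acids both compartments could be compared, with Eprs serving for glutamate and for proline. The log2 ratio of the mitochondrial enzyme was below that of its cytosolic partner in 10 and above it in 7, and this order does not depend on the scaling. The proline pair differed most, by 1.29 on the log2 scale (Pars2 minus Eprs), and the serine pair most in the other direction, by −0.80 (Sars2 minus Sars).

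**Figure D4:**
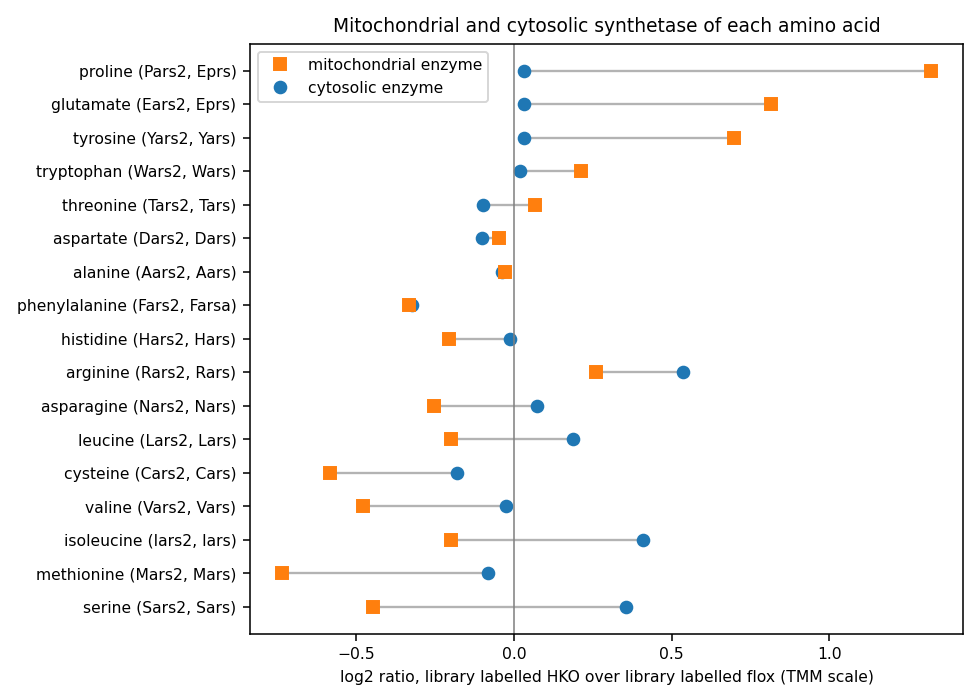
Log2 ratio of the library labelled HKO over the library labelled flox (TMM scale) for the mitochondrial enzyme (orange squares) and the cytosolic enzyme (blue circles) of each of 17 amino acids. Proline (difference 1.29), glutamate (0.78) and tyrosine (0.67) have the mitochondrial enzyme furthest above its partner, and serine (−0.80) furthest below.

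Levels between genes were compared per length, as FPKM on the TMM scale. Eef1a1 was the most abundant member at 3022 FPKM in the library labelled HKO and 2344 in the library labelled flox, and Mars2 the least at 0.250 and 0.416. The place of Mars2 rests on a transcript of 11294 bases with 1758 coding bases. By counts Eif4ebp3 was lower, with 34 and 30 in the libraries labelled HKO and flox against 57 and 92 for Mars2. The eIF3 genes had a median of 46.2 FPKM in the library labelled HKO and 42.4 in the library labelled flox. The cytosolic synthetase was above its mitochondrial partner in 16 of 17 pairs in the library labelled HKO and 15 in the library labelled flox, with the alpha chain Farsa standing for the phenylalanine enzyme. Some pairs were near ties. Farsa was at 1.02 and 1.01 times Fars2 in the libraries labelled HKO and flox, and Yars at 1.03 times Yars2 in the library labelled HKO. With the beta chain Farsb in place of Farsa, chosen after the data were seen, the counts were 16 and 14 in the libraries labelled HKO and flox. With Farsa, leucine was the exception in both libraries and isoleucine in the library labelled flox. With Farsb, phenylalanine joined them in the library labelled flox. The level of Eprs was 7.78 times that of Pars2 in the library labelled HKO and 19.1 times in the library labelled flox.

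These levels rest on the length of 1 transcript per gene, and 6 of the 99 genes moved by over 1.5 times when the transcript with the longest coding part gave the length. The largest move was that of Eif4g2, whose level was 383 FPKM in the library labelled HKO and 472 in the library labelled flox with a 742-base transcript, and 35.6 and 43.8 FPKM with one of 7995 bases. Its level relative to other genes is therefore not known from these data. The counts of 16 and 15 pairs with Farsa were the same either way, and ratios between libraries do not use length. With the longest coding part, Eprs was at 10.8 times Pars2 in the library labelled HKO and 26.5 times in the library labelled flox. Farsa was then at 1.62 times Fars2 in the library labelled HKO and 1.60 times in the library labelled flox.

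**Figure D5:**
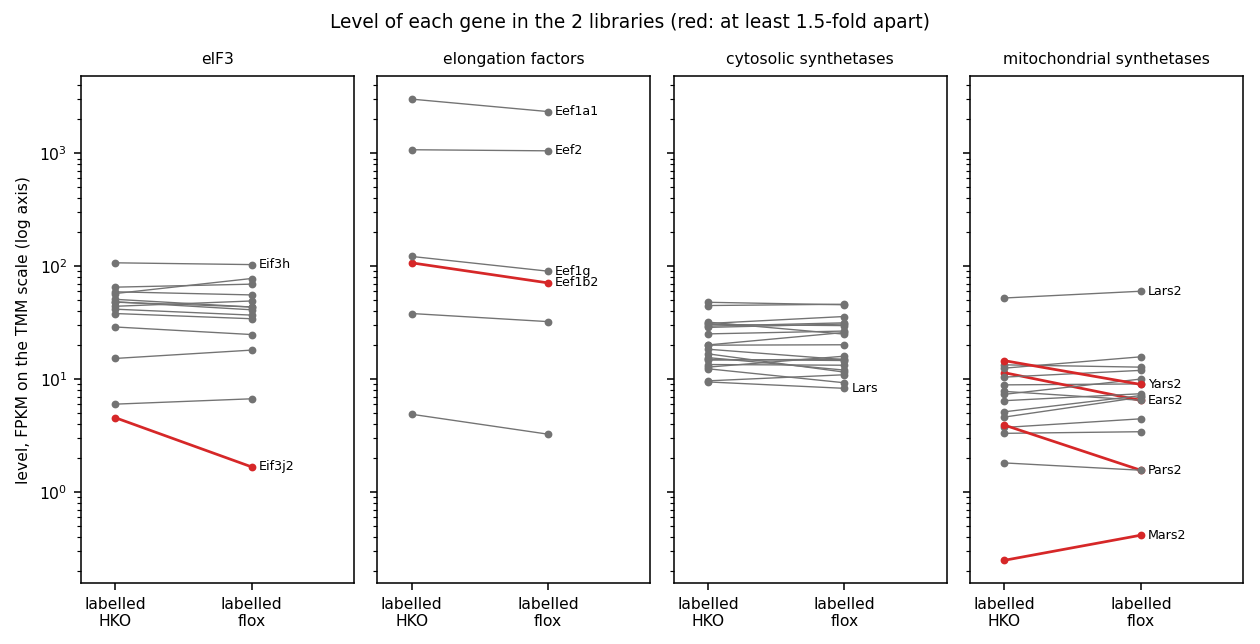
Level of each gene (FPKM on the TMM scale, log axis) in the library labelled HKO (left points) and the library labelled flox (right points) for eIF3, elongation factors, cytosolic synthetases and mitochondrial synthetases, with genes at least 1.5-fold apart in red. Eef1a1 lies at 3022 and 2344 FPKM in the libraries labelled HKO and flox, and Lars2 lies above the other mitochondrial enzymes at 52.4 and 60.2.

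Some genes of the rule stayed under the floor. Eif5a2 had 0 counts in the library labelled HKO and 11 in the library labelled flox. Eef1a2, the form of eEF1A found in muscle and nerve, had 1 and 0 counts in the libraries labelled HKO and flox. Eef1akmt3 had 2 counts in the library labelled HKO and 1 in the library labelled flox, and Eif4e1b had 0 in both.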

How the data were processed

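Liver RNA pooled from 4 mice per genotype was sequenced as 1 paired-end library each. The deposited values are raw counts of reads per gene made by the authors. The submitters' processing notes name TopHat2, HTSeq 0.6.1 and GRCm38, whereas the methods of the study name Hisat2 with HTSeq, and which made the files could not be told. The strand setting was not stated, so overlapping genes on opposite strands cannot be separated.

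Names came from GENCODE M21 (52489 identifiers matched, 147 did not). A set of 311 unannotated rows (0.261% of counts in the library labelled HKO, 0.328% in the library labelled flox) was left out. Libraries were scaled by TMM factors from edgeR 4.0.16, with total counts, upper quartile, DESeq2 1.42.0 size factors and TMM on protein-coding rows as alternatives. A prior of 0.5 counts was added for log2 ratios, genes needed 20 counts, and intervals came from SciPy 1.17.1. The count floor, prior, fold limit and membership were also varied. The steps were tested on simulated data.

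Levels were first computed as TPM, which moved with library composition, then as TMM-scaled FPKM with the length of the APPRIS principal transcript. Another version took the transcript with the longest coding part and was added after the levels had been seen, because the principal transcript of Eif4g2 is short. The APPRIS version is the one reported. The other is given where it moved a level by over 1.5 times for a gene whose level is printed, and for Eprs over Pars2.

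One sequence that matched a searched motif is not reported here. Members and lists were chosen with earlier results of these data known. Named genes were those past 2-fold, those past 1.5-fold with at least 100 counts, the 2 most counted and the extreme genes of each role, the eIF2 kinases, the 4E-BPs, the synthetase pairs and genes under the floor. Others were added to complete a role.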

Additional observations from a re-analysis of the deposited data

Results flagged for a closer look

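A row outside the members was well counted. Eif4a-ps4, annotated as a processed pseudogene of the eIF4A family, had 1305 counts in the library labelled HKO and 1106 in the library labelled flox, a log2 ratio of 0.19 (0.07 to 0.31). It was singled out because no comparison used it, it was well above the 3 counts that a count of 0 allows, and its interval lay above equality. The side of that interval was thus part of the choice and is not a result. Added to Eif4a1 it gave 7051 counts in the library labelled HKO and 5377 in the library labelled flox, a log2 ratio of 0.34, where Eif4a1 alone had 0.38. Of the words of Eif4a1, 22.6% recur in other genes, and whether reads passed between these rows was not tested.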

How the results depend on the processing

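With 1 library per genotype, no variation between mice or preparations could be estimated. No paired analysis was possible because the labels give no replicate numbers that pair samples (1 library per genotype). Total counts gave 5 members past 2-fold higher and a median of 0.30, against 0.28 over all genes, and 31 of the 99 members changed sign. Leaving out members with over 20% of sequence shared or exons overlapping left 1 higher (Pars2). A floor of 1 count added 1 lower (Eif5a2). A 1.5-fold limit gave 8 higher and 2 lower, and the rule of a log2 ratio over 1.5 and an exact binomial p below 0.05 gave 0 higher. Upper quartile scaling changed the sign of 12 members and DESeq2 size factors of 6. No named member reversed a call. The length given by the longest coding part, added after seeing the data, left the pair counts at 16 and 15 in the libraries labelled HKO and flox, and Farsb in place of Farsa, also added then, gave 16 and 14.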
